A study of Drosophila melanogaster with 3 samples.

Results

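The 73 genes described here are all protein-coding genes of the main Drosophila melanogaster chromosomes (X, Y, 4 and both arms of 2 and 3) whose symbol begins with mRpL or mRpS, out of 13946 protein-coding genes there. They encode proteins of the mitochondrial ribosome, by their symbols of its large (mRpL, 47 genes) and small (mRpS, 26 genes) subunits. Members were chosen by symbol alone, so tko and bonsai, which encode the mitochondrial proteins S12 and S15 under other names, stand outside the set. For each gene the data show whether an anti-HA CUT&Tag peak lay within 1000 bp of either of its boundaries in each of 3 libraries, and whether the libraries shared that position.

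All 3 libraries come from wing discs of larvae in the third instar with the genotype nub>GFP;UAS-BunA-HA, numbered here as replicates 1 to 3. The nubbin driver, active in the wing pouch, expressed GFP and ectopic HA-tagged BunA, an isoform of the TSC22 family gene bunched, and an antibody against HA directed the tagging of nearby DNA. Neither the number of discs nor the crosses behind each library are in the labels, and the spread between libraries may therefore be technical. Since a control without the tag was not analysed here, BunA-HA signal and chromatin that is open to the transposase cannot be told apart, nor can the cells of the disc that gave a peak.

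The libraries held 9268, 9005 and 9225 peaks, each with a q-value below 0.01, as the authors' peak caller gave them. Merging peaks that overlap by at least 1 bp gave 10871 regions on the main chromosomes, of which 5768 held a peak of all 3 libraries. Such a region is called a shared region below. Genes that mark the wing disc, nub, vg, wg, ap and sd, each had a shared region at a boundary, though peaks do not measure expression.

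Mitochondrial ribosomal proteins are made from nuclear genes in the cytoplasm, imported into mitochondria and assembled with ribosomal RNA that the mitochondrial genome encodes. The resulting ribosome makes the few respiratory chain subunits that mitochondrial DNA still encodes. Many of its proteins have a bacterial counterpart of the same number, and others were added in mitochondria. The genes are short and broadly expressed in growing tissues.

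Shared regions lay at the boundaries of 13 of the 73 genes (17.8%). The background was 20.6% of all protein-coding genes, so the members' share was slightly below that of the genome. Gene length changes this reading, since the members had a median length of 909 bp (quartiles 740 and 1195 bp) against 2173 bp for the other protein-coding genes, and long genes had boundary regions more often. Other protein-coding genes in the length strata of the members had a share of 11.3%, which corresponds to 8.25 of 73 genes. The count of 13 is thus above the like-length level and below the genome-wide one. The place below the genome depended on the window: within 500 bp the members' share was 16.4%, against 7.53% for like length and 16.04% of all protein-coding genes. No p is given for the set, because its members were chosen with earlier results of these data known.

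**Figure D1:**
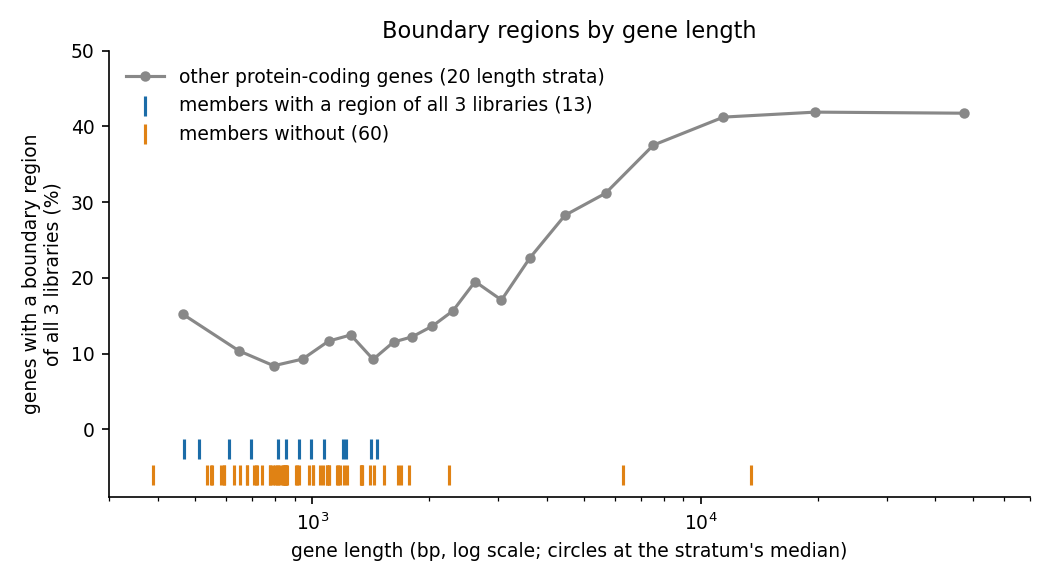
The vertical axis gives the percentage of protein-coding genes other than the members with a shared region at a boundary, and the horizontal axis gene length in bp on a log scale, with a circle at the median of each of 20 strata. Ticks below 0 mark the length of each member with a shared region (upper row, 13) and without (lower row, 60): the share was 8.39% in the stratum with most members and reached 41.9% among long genes.

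In single libraries the members were marked about as often as all protein-coding genes and more often than genes of their length. A boundary peak lay at 20 members in replicate 1 (27.4%), at 22 in replicate 2 (30.1%) and at 21 in replicate 3 (28.8%). The like-length shares in these libraries were 15.3%, 15.8% and 16.2%, and the shares over all protein-coding genes were 25.6%, 27.4% and 27.4%. The mean over libraries was 28.8% ± 1.37 for the members and 15.8% ± 0.452 for genes of like length (SD, n = 3). The difference had the same direction in all 3 libraries and exceeded the spread between them, a spread that holds no variation among genes.

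The libraries marked partly different members. A boundary peak in any library lay at 29 members (39.7%), against 20.8% for like length and a background of 33.3%, and a region of at least 2 libraries at 20 members (27.4%), against 15.1% and 25.9%. The 13 genes with a shared region were 44.8% of the 29 with any peak. The same proportion was 51.3% for the 2071 protein-coding genes with a length between the members' quartiles, and 61.8% for all protein-coding genes. By position, the member boundaries held 36 regions, of which 15 had peaks of all 3 libraries (41.7%), 9 of 2 and 12 of 1. Of all regions, 53.1% had peaks of all 3.

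**Figure D2:**
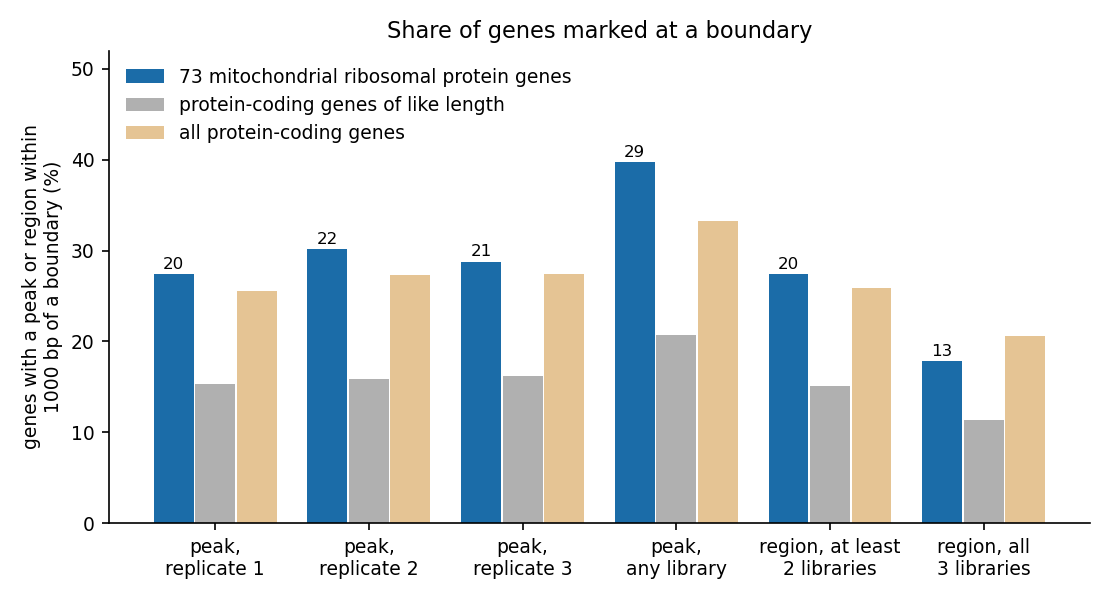
Bars give the percentage of genes with a peak or region within 1000 bp of a boundary for the 73 members, protein-coding genes of like length and all 13946 protein-coding genes, under 6 rules on the horizontal axis; the number above a bar counts the members. Under each of the 6 rules the members stand above the like-length genes, from 17.8% against 11.3% for regions of all 3 libraries to 39.7% against 20.8% for a peak of any library.

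The strongest member regions lay at mRpS14 and mRpL53, at or beside genes with which the members overlap. mRpS14 encodes a small subunit protein whose bacterial counterpart sits in the head of that subunit. The region at chrX:19480192-19480408 (dm6, as are all positions here) had a fold enrichment over the caller's background of 13.7, 16.5 and 14.9 in replicates 1, 2 and 3, or 15.0 ± 1.44 (SD, n = 3). All 3 libraries thus placed it high among their peaks, at a mean percentile of 93.5, counted from the lowest fold of each library. It overlapped the outermost 47 bp of mRpS14, whose annotated span ends at 19480238, and its centre lay 21 bp beyond that end, within Naa15-16, a gene for a protein acetyltransferase subunit that overlaps mRpS14.

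mRpL53 encodes a large subunit protein without a bacterial counterpart. The region at chr2R:13953984-13954222 had folds of 12.5, 13.1 and 15.5 (13.7 ± 1.59), with a mean percentile of 90.6 within the libraries. Its centre lay 103 bp outside the gene, which spans 13954195 to 13955664 within AGO1, the Argonaute gene of the microRNA pathway. CG33155 has the same annotated span as mRpL53, so the region belongs as much to one as to the other. A weaker region on the far side of the gene, at 13955883 to 13956003, had 4.25 in replicate 1 and 4.03 in replicate 3 and no peak in replicate 2.

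Other small subunit genes with shared regions were mRpS26, mRpS6, mRpS7 and mRpS16. mRpS26, again without a bacterial counterpart, had the region with the closest values between libraries, at chr3L:18105587-18106278, with folds of 11.6, 11.8 and 12.3 (11.9 ± 0.374; SD, n = 3). At 692 bp it was also the widest of the 15, whose median width was 195 bp against 237 bp over all shared regions. The mRpS26 region merged 5 peaks, 2 of replicate 1, 2 of replicate 2 and 1 of replicate 3. Its centre, the mean of their summits, lay 643 bp outside mRpS26 and within CG13698.

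mRpS6 encodes a protein whose bacterial counterpart sits on the platform of the small subunit. Its region at chr3L:4363966-4364198 had 9.47, 8.60 and 7.67 (8.58 ± 0.903), and its centre lay 440 bp from mRpS6 but 8 bp from the boundary of Cip4, an F-BAR protein gene. mRpS7, whose bacterial counterpart organises the head of the small subunit, had regions on the side of daughterless (da), a gene for the bHLH partner of proneural factors. The nearer one, at chr2L:10388018-10388121 and centred in the gap between the genes, had 6.98, 7.76 and 8.69 (7.81 ± 0.856). Its centre lay 53 bp from da and 400 bp from mRpS7, and the other, at 10388642 to 10388856 inside da, had 7.48, 4.66 and 7.16 (6.43 ± 1.54).

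mRpS16, whose bacterial counterpart binds early in assembly of the small subunit, had a region at chr2R:14173612-14173733 with 7.19, 7.73 and 6.52 (7.14 ± 0.607; SD, n = 3). It lay across the gap between mRpS16, 71 bp from its centre, and combgap (cg), a zinc finger gene 26 bp from it. At mRpS26, mRpS6, mRpS7 and mRpS16 the neighbouring gene was nearer to the centre of the strongest region than the member was.

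**Figure D3:**
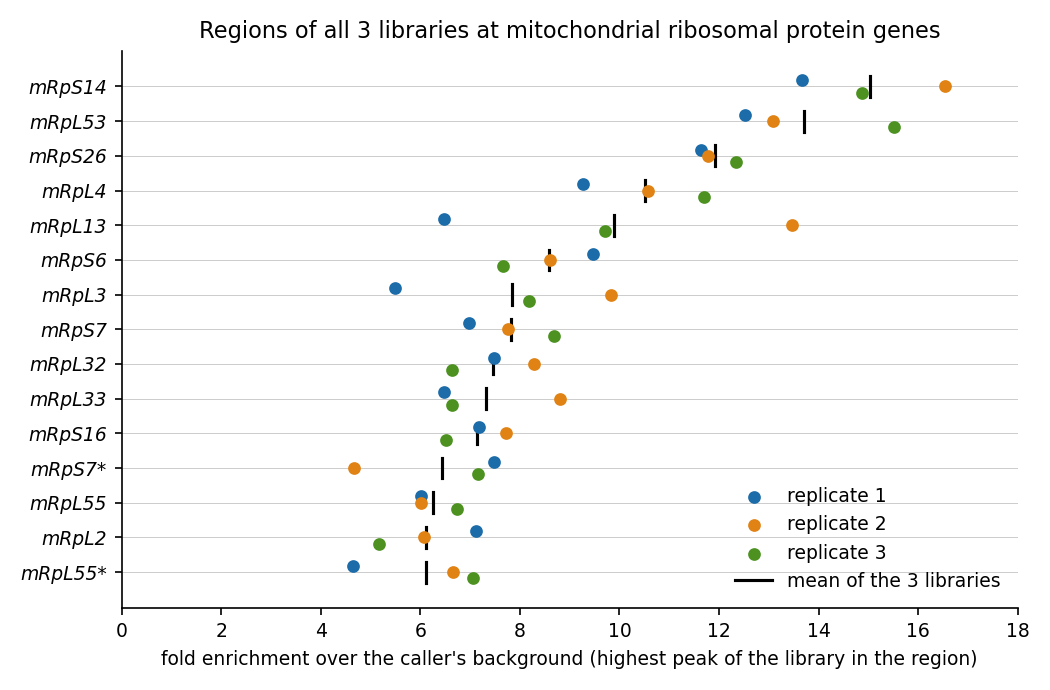
Points give the fold enrichment of each library's highest peak in each of the 15 shared regions at member boundaries, in order of the mean (black bar), and an asterisk marks the weaker region of a gene with a pair of them. The libraries differed least at mRpS26 (11.6, 11.8 and 12.3) and most at mRpL13 (6.48, 13.5 and 9.71).

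Large subunit genes with shared regions began with mRpL4 and mRpL13, whose bacterial counterparts join early in assembly of the large subunit. The region at chr2L:16329096-16329254 overlapped the end of mRpL4 by 37 bp and had folds of 9.27, 10.6 and 11.7 (10.5 ± 1.22; SD, n = 3). Its centre lay between genes, 40 bp from mRpL4 and 753 bp from the nearest other boundary, that of CG4440, so that the member was the nearest gene by the widest margin of the 15 regions. mRpL13 differed most between libraries, with 6.48, 13.5 and 9.71 (9.88 ± 3.49) at chr2L:18859216-18859427, and replicate 2 stood at 2.08 times replicate 1. This region overlapped the end that mRpL13 shares with CG10602 by 33 bp, and its centre lay 76 bp outside it, in the gap before tailup (tup), a gene for a LIM-homeodomain factor of the notum.

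mRpL3 and mRpL2, whose bacterial counterparts lie close to the peptidyl transferase centre, had weaker regions. At mRpL3 the folds were 5.48, 9.84 and 8.18 (7.83 ± 2.20; SD, n = 3) at chrX:15760705-15760847, centred 468 bp from the gene and 47 bp from Graf. At mRpL2 they were 7.13, 6.07 and 5.17 (6.12 ± 0.979) at chr3L:11119861-11120086, inside FoxK, a forkhead factor gene, and 910 bp from mRpL2. Of the 13 genes, mRpL2 alone had no shared region within windows of 500 bp.

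mRpL32 and mRpL33 also have bacterial counterparts of the same number, and mRpL55 does not carry the number of a bacterial protein. At mRpL32 the region at chr3R:31252223-31252384 had 7.48, 8.28 and 6.65 (7.47 ± 0.819; SD, n = 3) and was centred in qless, a coenzyme Q synthesis gene, 544 bp from mRpL32. At mRpL33 the region at chrX:4322428-4322622 had 6.48, 8.80 and 6.65 (7.31 ± 1.29) and was centred 84 bp from norpA, the phospholipase C gene of phototransduction, and 311 bp from mRpL33. mRpL55 had a shared region on either side. That inside the kinase gene cdi, at chr3R:19093729-19093868, had 6.02, 6.005 and 6.74 (6.25 ± 0.417). That at 19094910 to 19095026, between mRpL55 and the ATP synthase gene ATPsynD, had 4.65, 6.65 and 7.06 (6.12 ± 1.29), and replicate 1 had another peak of 5.71 at 19094229 to 19094345.

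The member regions were of middling strength. The strongest shared region of each of the 13 genes had a median fold of 7.83 and a median percentile of 59.9, with folds from 6.12 to 15.0. For the 201 genes with a shared region at a boundary among those with lengths between the members' quartiles, the medians were 8.49 and 63.4. For the 2855 protein-coding genes other than the members with such a region they were 9.49 and 72.2. Over the 15 regions the median fold was 7.81, against 8.20 over all 5768 shared regions. Replicate 1 gave the lowest of the 3 values at 9 of the 15 regions. It also had the lowest median fold over all its peaks, 6.61 against 7.15 and 6.98 in replicates 2 and 3.

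None of the member regions was centred inside a member. All 36 centres lay outside the annotated gene, and 4 of the 15 shared regions overlapped it. Among the pairs of a gene and a shared region at its boundary, the centre lay in the gene for 14 of 231 (6.06%) in genes of the members' middle lengths and for 27.7% in all other protein-coding genes. Each of the 15 shared regions also lay within 1000 bp of a boundary of another gene, against 79.2% for the like-length genes. The centre was closer to another gene in 11 of the 15, closer to the member in 2 (mRpS14 and mRpL4), and equally far in 2 where the genes share a boundary (mRpL53 and mRpL13). Counting ties, the gene's own boundary was the nearest in 26.7% of the members' pairs of gene and region, in 39.8% at genes of the middle lengths and in 62.3% at all other protein-coding genes. In 8 of them the centre lay in no annotated gene and in 7 inside a neighbour (Naa15-16, AGO1, CG13698, qless, da, cdi and FoxK). The share inside another gene was 46.7% for the members, close to the 45.0% at genes of the middle lengths, and 26.95% at all other protein-coding genes. Each of these regions is thus a boundary region of a neighbour as well, and the peaks alone do not assign it to either gene.

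**Figure D4:**
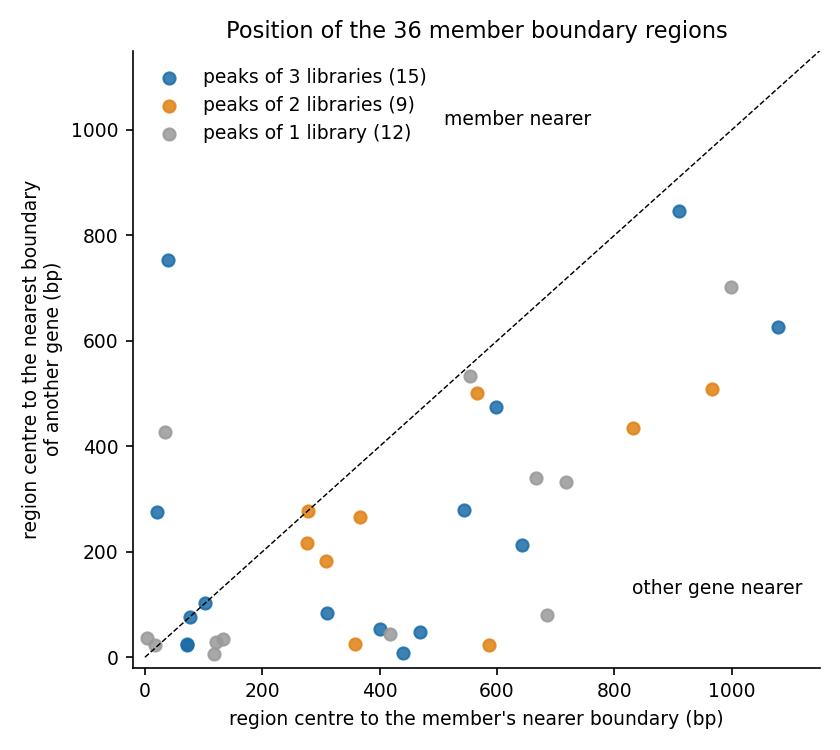
Each point is 1 of the 36 regions at member boundaries, with the distance in bp from its centre to the member's nearer boundary on the horizontal axis and to the nearest boundary of any other gene on the vertical axis; colours give the number of libraries with a peak. Of the 15 regions of all 3 libraries, 11 lie below the dashed line of equal distance, closer to another gene.

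Having at least 2 near neighbours was more frequent among the members than among genes of their size, although the median number was 2 in both. A boundary of at least 2 other genes lay within 1000 bp of the gene's own boundaries at 68 of 73 members (93.2%). The share was 55.4% of the genes with lengths between the members' quartiles and 60.4% of all protein-coding genes. Among the 92 genes with symbols beginning RpL or RpS it was 79.3%. Another annotated gene overlapped the span of 43 members, a count given without the share among other genes. Shared regions stood at 12 of the 54 members with exactly 2 such neighbours, at 1 of the 5 with 0 or 1, and at 0 of the 14 with 3 or more. The shares among genes with lengths between the quartiles were 10.2%, 7.69% and 14.1% in these classes. Over all protein-coding genes the shares in these classes were 20.4%, 19.3% and 23.8%. With strata by length and neighbour number together, the like-length share was 12.99% instead of 11.3%, still below the members' 17.8%.

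Both subunits had similar counts relative to gene length. Shared regions stood at 8 of 47 large subunit genes (17.0%, with 10.8% for like length) and at 5 of 26 small subunit genes (19.2%, with 12.3%). The background was 20.6% of all protein-coding genes. Single libraries marked 13, 13 and 12 of the large subunit genes (27.7%, 27.7% and 25.5%, with 14.7%, 15.1% and 15.8% for like length). Of the small subunit genes they marked 7, 9 and 9 (26.9%, 34.6% and 34.6%, with 16.6%, 17.3% and 17.3%). The shares of all protein-coding genes in these libraries were 25.6%, 27.4% and 27.4%. Grouping by symbol, chosen after the values were seen, put 44 members beside 29 others. The 44, called the counterpart group, were mRpL numbers up to 36, mRpS numbers up to 21, mRpL47 and mRpS24. This rule on names may miss bacterial counterparts that carry higher numbers. The counterpart group held 10 of the 13 genes (22.7% of its members, 11.9% for like length), and the other group held mRpL53, mRpL55 and mRpS26 (10.3%, 10.5% for like length). Beside the background of 20.6%, the first share was slightly higher and the second lower. In single libraries the shares of the 2 groups were 34.1% ± 2.27 and 20.7% ± 5.97 (SD, n = 3). The like-length shares were 16.3% and 15.2%, and the background was 26.8%. The difference between the groups was not tested. Subunits were taken from the symbols. mRpS30, for example, is named for the small subunit, although its human counterpart is part of the large one.

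By chromosome, shared regions lay at 3 of 12 members on 2L, 2 of 12 on 2R, 3 of 17 on 3L, 2 of 21 on 3R and 3 of 11 on X. The shares of all protein-coding genes on these arms ran from 19.3% on 2R to 24.0% on X. The counts per arm are too small to set the members of 1 arm apart from those of another. No member lies on chromosome 4 or Y.

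A boundary peak without a region of all 3 libraries was found at 16 more members. mRpL47, the counterpart of the bacterial protein L29, had a peak in each library but not at 1 position. Replicates 1 and 3 had 6.48 and 5.62 at chr3R:9516212-9516368, and replicate 2 had 6.73 at 9515958 to 9516068. Both positions lie inside Kdm3, a histone demethylase gene. Counting a boundary peak of every library at any position, the members marked numbered 14, against a background of 20.8% of protein-coding genes.

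Peaks of 2 libraries stood at 6 genes. They were mRpL11 (6.21 and 9.20 in replicates 2 and 3), mRpL17 (7.12 and 7.49 in replicates 2 and 3) and mRpS23 (6.90 and 4.83 in replicates 2 and 3). The others were mRpS30 (4.99 and 9.84 in replicates 1 and 2), mRpS31 (4.49 and 5.18 in replicates 1 and 2) and mRpL34 (4.20 and 6.32 in replicates 1 and 2). mRpL34 lies beside Dystroglycan (Dg), and replicate 2 had another peak there of 5.06. Each pair of libraries thus shared some position that the remaining library lacked, replicates 1 and 3 at mRpL47 and beside mRpL53.

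Peaks of 1 library stood at a further 9 genes, with folds from 4.49 to 8.18. Replicate 1 had them at mRpL1 (5.98), mRpL15 (5.48) and mRpL18 (4.49). Replicate 2 had them at mRpS35 (4.66) and mRpL49 (5.72), and replicate 3 at mRpL48 (6.65), mRpS18B (8.18), mRpS18C (7.67) and mRpS21 (7.04). The peaks at mRpL1, mRpL15 and mRpL48 were centred within 34, 4 and 18 bp of the gene and nearer to it than to any other gene. At the other 9 of the 12 regions of 1 library another gene was nearer.

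The other 44 members had no boundary peak in any library. Of the large subunit these were mRpL9, mRpL10, mRpL12, mRpL14, mRpL16, mRpL19, mRpL20, mRpL21, mRpL22, mRpL23, mRpL24, mRpL27, mRpL28, mRpL30, mRpL35, mRpL36, mRpL37, mRpL38, mRpL39, mRpL40, mRpL41, mRpL42, mRpL43, mRpL44, mRpL45, mRpL46, mRpL50, mRpL51, mRpL52 and mRpL54. Of the small subunit they were mRpS2, mRpS5, mRpS9, mRpS10, mRpS11, mRpS17, mRpS18A, mRpS22, mRpS24, mRpS25, mRpS28, mRpS29, mRpS33 and mRpS34. mRpS9, the longest member at 13391 bp, had 1 peak of replicate 1 deep in the gene (fold 4.99, 5284 bp from a boundary). Counting the whole gene and its flanks therefore gave 30 members with a peak of any library (background 36.7%) and the same 13 genes with a shared region (background 23.9%). The lists hold only peaks that passed the caller's threshold, so weaker signal at these genes was not detectable. The depth of the libraries is also unknown.

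By median distance the members stood level with the other protein-coding genes and nearer to shared regions than genes of their length. The nearest shared region lay a median of 8176 bp from a member, against 11696 bp for genes with lengths between the members' quartiles and 8185 bp for the other protein-coding genes. Within 5000 bp there was one for 30 members (41.1%), against 29.7% for like length and 40.2% of all protein-coding genes. At shorter range the members stood below all protein-coding genes. Within 1000 bp of the gene the shares were 17.8% and 23.9%, with 11.5% for like length. Within 2000 bp they were 21.9% and 28.3%, with 16.6% for like length. Among the 44 genes without a boundary peak the distance ran from 1513 bp at mRpS25 to 180298 bp at mRpS5, with a median of 13178 bp.

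Related gene classes are given side by side and were not tested against the members. The background over all protein-coding genes was 20.6% for shared regions and a mean of 26.8% for single libraries. Genes with symbols beginning RpL or RpS, which encode proteins of the cytoplasmic ribosome and close paralogs, numbered 92. Of these, 26 had a shared region at a boundary (28.3%, with 11.96% for like length). Single libraries marked 48.2% ± 5.36 of them (SD, n = 3), with 17.1% for like length. Of 90 nuclear genes for respiratory chain and ATP synthase subunits, some of them paralogs, 11 had a shared region (12.2%, with 13.7%). Single libraries marked 20.7% ± 3.57 of these genes, with 18.9% for like length. The members, at 17.8% and 28.8% ± 1.37, lay between these classes in both counts. Of the genes with a peak of any library, 44.8% of the members and 45.6% of the cytoplasmic class had a shared region.

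Other genes of mitochondrial gene expression were listed together with the mitochondrial DNA replication genes PolG1, PolG2, mtDNA-helicase and mtSSB and the insertase gene OXA1L. Of these 36 genes, 5 had a shared region at a boundary (13.9%, with 16.6% for like length and a background of 20.6%). Single libraries marked 29.6% ± 5.78 of them (SD, n = 3), against 22.8% for like length and a background of 26.8%. This class thus stood below like length by shared regions and above it by single libraries. The strongest was at mtTFB1, a ribosomal RNA methyltransferase gene, with 14.5, 13.9 and 15.3 (14.6 ± 0.699; SD, n = 3). TFAM, which packages mitochondrial DNA, had 9.47, 13.9 and 12.1 (11.8 ± 2.23). The synthetase genes LeuRS-m and PheRS-m had 10.8 ± 1.61 and 7.61 ± 1.26. Of the mitochondrial ribosomal proteins that carry other symbols, bonsai had 9.97, 10.9 and 7.67 (9.50 ± 1.65) and tko had a boundary peak in 1 library. Each of these 5 shared regions also lay at a boundary of another gene. These were CG11658 and Ccdc56 at mtTFB1, a snoRNA gene at TFAM, Dhc64C at LeuRS-m, CtsL1 at PheRS-m and Cdk9 at bonsai. The elongation factor genes mEFTu1 and mEFTu2 and the mitochondrial RNA polymerase gene PolrMT had no boundary peak in any library.

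**Figure D5:**
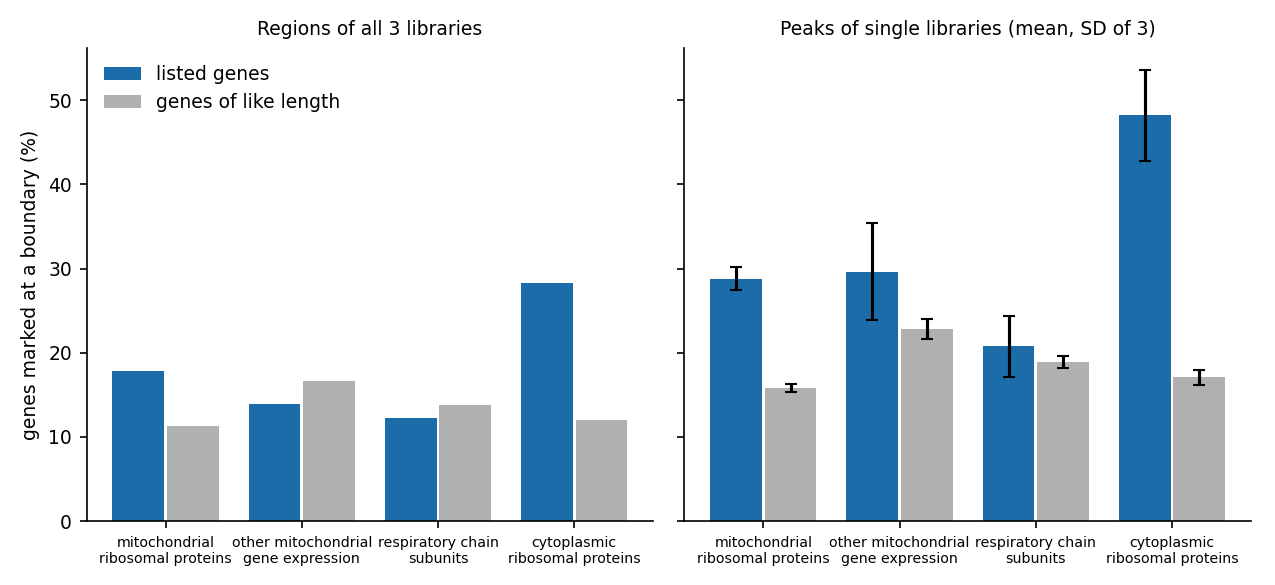
Bars give the percentage of genes marked within 1000 bp of a boundary for the 73 members and 3 related classes (36, 90 and 92 genes), each beside protein-coding genes of like length, by regions of all 3 libraries (left) and by peaks of single libraries (right; mean with the SD of 3 libraries as error bars). The members stand at 17.8% against 11.3% on the left and 28.8% against 15.8% on the right, between the respiratory chain and the cytoplasmic ribosomal protein genes.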

How the data were processed

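CUT&Tag peaks from 3 wing disc libraries of 1 group were analysed, as lists called per library on dm6. Per the submitters' processing notes the tools included Trim Galore, Bowtie2, Bowtie and MACS2, with no version or setting given in the sources used here. The deposited lists give for each peak a start, an end and a summit, a fold enrichment as a linear ratio, a −log10 p-value, a −log10 q-value and a score, which is 10 times the −log10 q-value in 99.99% of peaks. These are the authors' values for single peaks, used to describe and rank peaks within a library, and read depth is unknown.

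Python 3.11.15 and pandas 2.3.3 were used to merge overlapping peaks and to relate them to 17807 genes of the RefSeq table (Release 6 plus ISO1 MT), which gives no strand, exons or start sites. A gene was marked when a peak or region overlapped a window of 1000 bp on either side of a boundary. A region's centre is its mean summit position, and its fold averages the highest peak of each library. The like-length share is the mean, over members, of the marked share of other protein-coding genes in the same of 20 length strata. No sequences or promoters were used, so the planned search for 6 motifs was not run. Of 28 names listed for mitochondrial gene expression 7 matched no gene, and symbols ending in RS-m were added. The members and lists were chosen with earlier results of these data known, so no test was made. The rule for naming genes took every member. The code was checked on planted peaks with known answers. Alternatives varied the window, the peaks used, the merging, the libraries and the strata.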

Additional observations from a re-analysis of the deposited data

How the results depend on the processing

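No paired analysis was possible because the series has 1 group. Of the 13 members with a shared region, 6 were left with peaks at or above the median fold of their library (mRpS14, mRpL53, mRpS26, mRpL4, mRpS6 and mRpS7; 8.22% of members, 6.17% for like length and 13.2% of all protein-coding genes). Regions of at least 2 libraries gave 20 and of at least 1 gave 29, where like-length shares were 15.1% and 20.8%. The shares of all protein-coding genes under these rules were 25.9% and 33.3%. Leaving out a replicate gave 14 to 16 members, the same 13 among them each time, with a median fold from 7.45 to 7.93. Like-length shares were then from 12.3% to 12.8%. Without replicates 1, 2 and 3 in turn, the members' shares were 21.9%, 19.2% and 21.9%. Those of all protein-coding genes were 23.1%, 22.0% and 21.9%. Windows of 500 and 2000 bp gave 12 and 16 members, with 7.53% and 16.4% for like length and 16.04% and 26.2% of all protein-coding genes, and centres inside the window gave 13, with 10.6%. The like-length share was also 20.6% without strata, 12.99% with neighbour number added and, chosen after the data were seen, 9.71% for genes between the members' length quartiles. It moved by less than the spread between libraries with 10 or 50 strata and with peaks required to overlap pairwise by 50% of the shorter. The members' share stood above the like-length share in each of these settings other than that without strata. The mean count per library was 11.7 with the stronger peaks alone and otherwise 17 to 24.7, and the median fold was 9.47 when the highest library was taken. Unknown depth and the lack of a control library limit every count.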
